A study of Homo sapiens with 24 samples.

Results

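Homologous recombination and Fanconi anemia genes were examined in 3 breast cancer cell lines, all ER+ (estrogen receptor–positive), grown at low or high glucose. The group held 35 named genes of the 18889 listed, and all 35 were found by symbol and passed the filter on low values in each line. Among them were BRCA1, BRCA2 and their partners, enzymes that act on broken DNA ends, genes of DNA strand pairing, checkpoint kinases, Fanconi genes and the EME1/MUS81 nuclease. MRE11 appears under its older symbol, MRE11A. The lines were MDA-MB-175, ZR-75-30, followed by HCC1500 (values for the 3 lines are given in this order), and no line carried an engineered allele. Each was kept for 48 hours at 5 mM glucose (low glucose) or 25 mM glucose (high glucose), with 4 cultures per group and 24 cultures in all. Per the study's methods, these media held no serum and the cells had first been conditioned at low glucose, which applied to both groups. The same methods used a mannitol control for osmolarity in some experiments and report that mannitol made no difference to the phenotypes examined. No mannitol culture was analysed here, so in these RNA data glucose and osmolarity cannot be told apart. The labels do not say whether the 4 replicates were started on separate days, so p-values measure the spread between these cultures, which may be technical. Each line stands for the tumor of a single donor.

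Homologous recombination repairs DNA breaks by copying an intact sister molecule, which is available after DNA replication. MRE11, RAD50 and NBN hold the broken ends, RBBP8 and nucleases such as EXO1 cut them back, and BRCA1, PALB2 and BRCA2 help the end to pair with its copy. Proteins of the Fanconi pathway add ubiquitin to the FANCD2–FANCI pair at DNA crosslinks and pass the damage on to the same machinery. Many of these genes are transcribed mostly in dividing cells, and inherited loss of BRCA1, BRCA2, PALB2 or RAD51C raises the risk of breast or ovarian cancer.

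Values are normalized reads, the deposited values, each a whole number of reads divided by a factor for its culture. The cultures held 9140024 to 17998819 reads, so that 1 read was worth 0.318 to 0.763 normalized reads. The glucose labels were checked with TXNIP, a glucose-induced arrestin-domain gene, which rose in the 3 lines by 0.39, 0.76 and 1.02 on the log2 scale. Of TXNIP and ARRDC4, the 2 genes of this check, both were called higher in MDA-MB-175 and ZR-75-30. In HCC1500, 1 of the 2 was called higher with all cultures, and both were without high glucose replicate 3. All 8 luminal epithelial markers examined were detected at low glucose, CDH1 lowest in ZR-75-30 with 55.6 ± 6.51 normalized reads. Of 5 markers of leukocytes, endothelium and fibroblasts, COL1A1 was highest, at 241 ± 12.2 in HCC1500. In this list ACTA2 was higher at high glucose in ZR-75-30 (1.90 on the log2 scale) and HCC1500 (1.09), and VWF was lower in MDA-MB-175 (-0.48). CD14, a monocyte marker, was higher in HCC1500, from 1.79 ± 1.21 to 15.0 ± 8.34 normalized reads, a log2 change of 2.505, or 2.20 without high glucose replicate 3. COL1A1 was lower in HCC1500 without that culture only (-0.39). The part of these markers in the results was not tested. PTPRC, CD3E and PECAM1 were not analysed here.

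A single culture stood apart, the HCC1500 high glucose replicate 3, and HCC1500 is therefore given with and without it. Of the 35 genes, 19 lay below and 13 above all of the other 3 high glucose cultures there. The shares over all genes are not given here, so these counts are not read as particular to the 35. ATM, the break-sensing kinase, had 14.1 normalized reads against 49.9 to 66.7 in the others. MUS81 lay on the other side, at 287 against 127 to 143. Long transcripts tended to be low and short ones high in this culture. Across the 35 genes, Spearman's rho between transcript length and the difference of replicate 3 from the others was -0.74, and across 12422 genes it was -0.70. These are descriptions across genes of a single library, and RNA quality values were not analysed here.

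**Figure D1:**
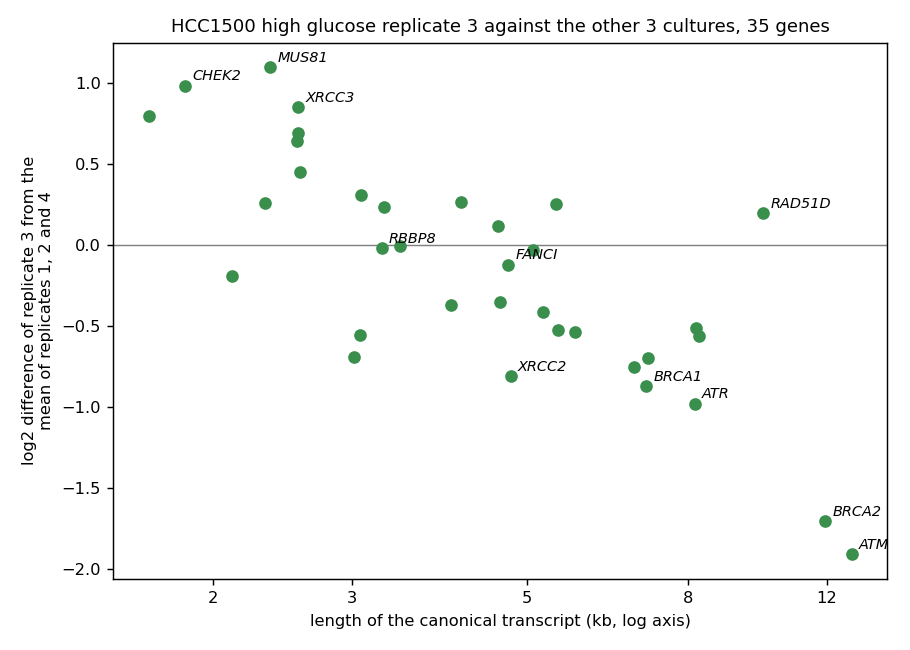
Log2 difference between HCC1500 high glucose replicate 3 and the mean of replicates 1, 2 and 4 (y axis) against the length of each gene's canonical transcript in kb (x axis, log scale), 1 point for each of the 35 genes. The longest transcripts, ATM and BRCA2, were lowest at -1.91 and -1.71, and MUS81 was highest at 1.10.

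Most of the 35 genes were lower at high glucose, with small changes in MDA-MB-175 and larger ones in the other lines. In MDA-MB-175, 18 genes were lower and 0 higher (limma, adjusted p under 0.05), beside a background of 13.7% lower and 11.9% higher among all genes tested. The 18 fell to 10 when all 24 cultures were fitted together. ZR-75-30 had 30 lower and 1 higher, beside 22.7% and 23.4% of all genes. HCC1500 had 21 lower and 1 higher, beside 13% and 7.46%. Without replicate 3, HCC1500 had 30 lower and 2 higher, beside 37.7% and 20.9%. The shares of the 35 genes called lower were thus 51.4%, 85.7% and 60.0% in the 3 lines, and 85.7% in HCC1500 without replicate 3. In the same order the median log2 changes of the 35 genes were -0.24, -0.88, -0.67 and -0.72, and those of all genes tested were -0.023, 0.012, -0.064 and -0.12.

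**Figure D2:**
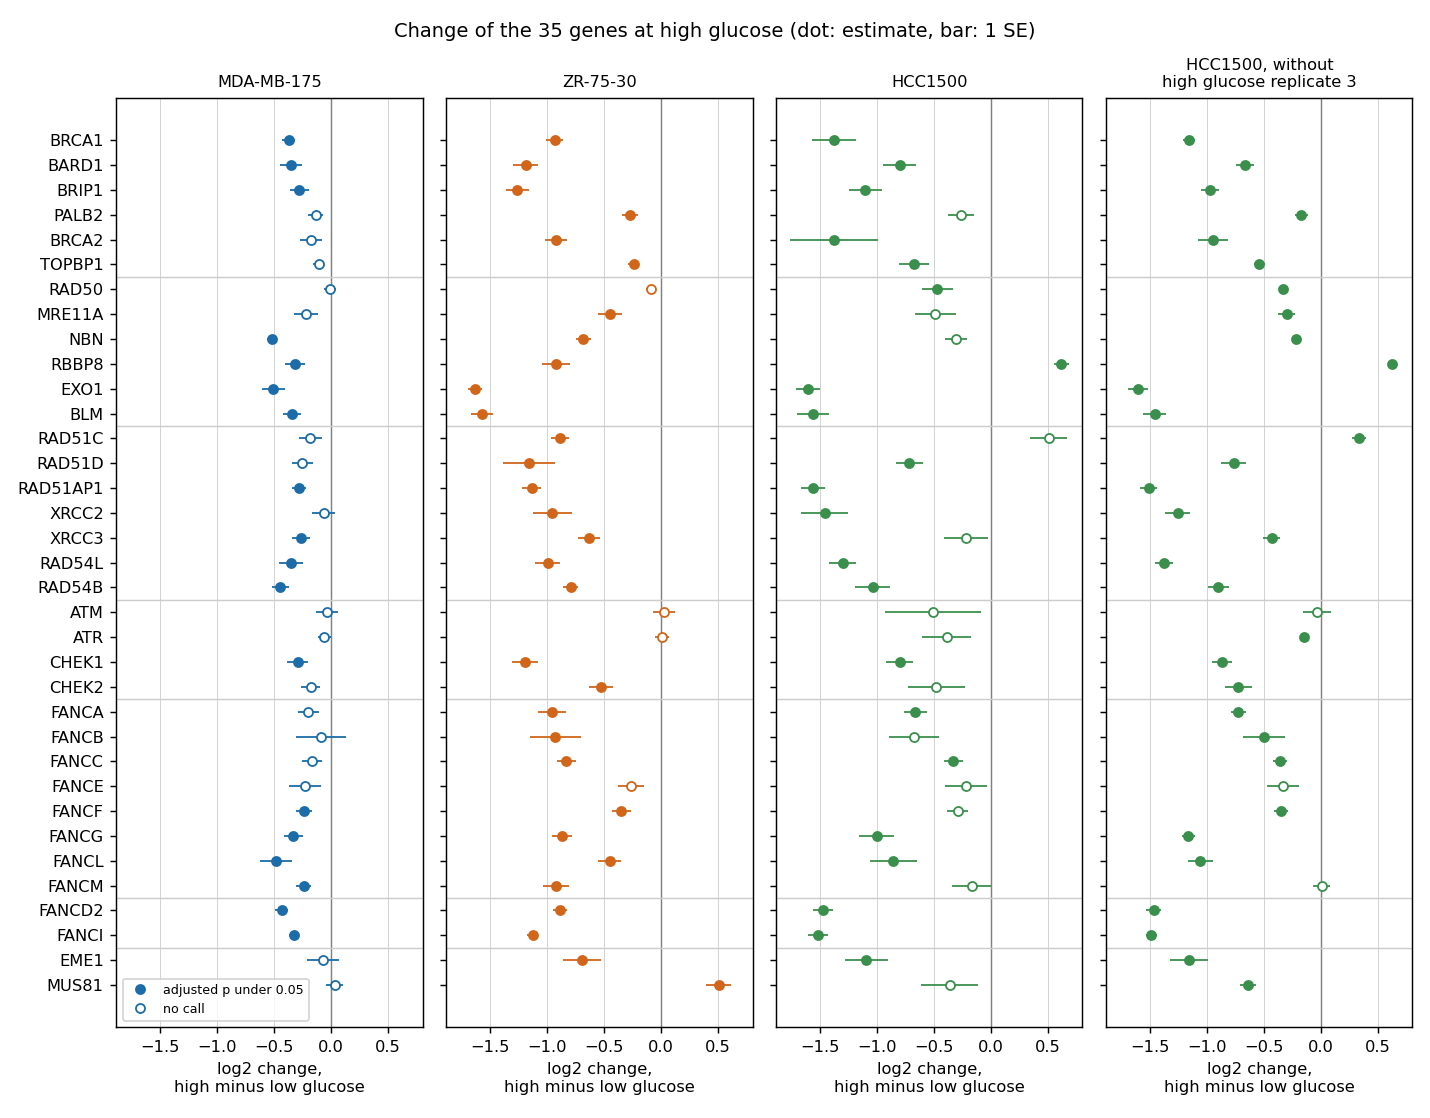
Log2 change from low to high glucose (x axis) for the 35 genes (rows, lines between role groups) in each line and in HCC1500 without high glucose replicate 3, with bars of 1 SE. Filled dots passed an adjusted p of 0.05 in limma, and most lie left of 0, with RBBP8 and RAD51C in HCC1500 and MUS81 in ZR-75-30 to the right.

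The high and low glucose cultures often did not overlap. All 4 high glucose cultures lay below all 4 low glucose cultures for 17 genes in MDA-MB-175 (background 13.9%), 31 in ZR-75-30 (21.1%) and 26 in HCC1500 (18.7%). Without replicate 3 the HCC1500 count was 29 (37.1%). Proliferation markers moved in the same direction. All 11 markers were lower in the first 2 lines and 10 of 11 in HCC1500, with PCNA not called there, at -0.31 (adjusted p = 0.289). Without replicate 3 all 11 were lower in HCC1500, PCNA at -0.52 (adjusted p = 9.61e-10). In MDA-MB-175 their log2 changes lay between -0.57 and -0.22, in ZR-75-30 between -1.81 and -0.47, and in HCC1500 between -2.06 and -0.31. MKI67, which marks cycling cells, changed by -0.43, -1.05 and -2.06 in that order. Their part in the result was not tested, and in bulk RNA fewer cycling cells and less RNA per cell cannot be told apart.

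A set of 13 genes was lower in all 3 lines, where 3.32% of the genes tested in each line were. They were BRCA1, BARD1, BRIP1, EXO1, BLM, RAD51AP1, RAD54L, RAD54B, CHEK1, FANCG, FANCL, FANCD2 and FANCI. Without HCC1500 high glucose replicate 3 the set held 16 genes, with NBN, XRCC3 and FANCF added, beside 6.74% of all genes. Without MDA-MB-175 high glucose replicate 2 it held 9.

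Promoters are shown here as background, since E2F factors are known to drive genes of the S phase. Whether these factors had a part in the changes was not tested. RefSeq windows of 250 bases before to 50 after the start (GRCh38.p14) were matched for 32 of the 35 genes. They were searched on both strands for an E2F-type motif (TTTCCCGC, TTTGGCGC, TTTCGCGC or TTTGCCGC) and for the CHR motif of cell cycle promoters (TTTGAA or TTCGAA). An E2F-type match was present in 6 of the 32 windows (18.8%) and in 3.31% of all 35116 windows, and a CHR match in 3 (9.38%) and 16.4%. Of the genes lower in all 3 lines, 2 of the 11 with a window held an E2F-type match, against 4 of the other 21. Matched to GRCh37, 30 windows began within 500 bases of the canonical transcript's start. The BRCA1 window began 44963 bases upstream of it and the CHEK1 window 1066 bases downstream, so neither is read here as that gene's main promoter. Both windows are included in the counts above, as windows without a match. Each E2F-type match is printed with 8 bases on either side, 5′ to 3′ on the gene's strand, with the match in capitals. 
EXO1, 4 bases after the start, chr1:241848200-241848223, plus strand: ggtcagccTTTCGCGCgctgtgta
FANCD2, 2 bases before the start, chr3:10026427-10026450, plus strand: cgggcctgGCGGGAAAgtcgaaaa
TOPBP1, 7 bases before the start, chr3:133661933-133661956, minus strand: cgcggttgGCGCGAAAgtcggttc
XRCC2, 21 bases after the start, chr7:152676105-152676128, minus strand: cgttggtgGCGGGAAAgttgagtc
FANCA, 172 bases before the start, chr16:89816804-89816827, minus strand: acaccgcgGCGGCAAAgccaaacg
FANCC, 172 bases before the start, chr9:95317866-95317889, minus strand: gggcttccGCGCGAAAccgggaac
FANCC, 46 bases before the start, chr9:95317740-95317763, minus strand: gtcggaatTTTCCCGCgacgccgc
The EXO1 and FANCD2 matches lie beside the start. The 150 bases that lead up to it are given for these 2 genes, which were lower in all 3 lines. The EXO1 match lies past the end of its stretch, and only the first 2 bases of the FANCD2 match are in its stretch. 
EXO1, chr1:241848054-241848203, plus strand: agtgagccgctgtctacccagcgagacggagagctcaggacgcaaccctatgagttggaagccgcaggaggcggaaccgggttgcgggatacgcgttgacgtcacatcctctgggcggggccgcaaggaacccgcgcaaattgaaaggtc
FANCD2, chr3:10026287-10026436, plus strand: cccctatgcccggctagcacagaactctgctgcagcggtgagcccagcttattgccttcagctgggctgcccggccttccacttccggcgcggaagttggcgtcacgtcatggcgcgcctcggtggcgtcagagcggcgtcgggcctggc
These stretches were 62.7% and 68.7% G or C. A match is a description of letters, and factor binding was not measured.

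BRCA1, the ubiquitin ligase that starts recombination at breaks, was lower in each line at high glucose. The 4 MDA-MB-175 low glucose cultures had 392, 416, 383 and 414 normalized reads, and the 4 high glucose cultures 282, 339.7, 316 and 304. The groups did not overlap, and the log2 change was -0.37 ± 0.06 (SE, adjusted p = 0.000221). Among fits under other settings or without a culture, that call held in 17 and was lost in 1. In ZR-75-30, BRCA1 went from 204, 192, 210.2 and 189 to 97.4, 105, 101 and 113, a log2 change of -0.93 ± 0.074 (SE, adjusted p = 7.62e-09). HCC1500 went from 280.5, 281, 278 and 278 to 122, 128, 67.6 and 125, with replicate 3 the lowest. There too the groups were separate, with a log2 change of -1.38 ± 0.20 (SE, adjusted p = 0.00183) and, without replicate 3, -1.16 ± 0.052 (SE, adjusted p = 1.98e-12).

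BRCA2, which acts on the single-stranded DNA of a cut-back end, did not pass the test in MDA-MB-175. Its cultures there had 123, 142, 129.8 and 163 normalized reads at low and 106, 134, 129 and 125 at high glucose, and these ranges overlapped. The log2 change was -0.17 ± 0.10 (SE, adjusted p = 0.219). ZR-75-30 cultures were separate, from 104, 105, 107 and 111 down to 59.4, 58.1, 51.8 and 54.1, with a log2 change of -0.92 ± 0.094 (SE, adjusted p = 2.12e-07). HCC1500 had 67.3, 72.7, 62.9 and 81 at low and 44.2, 36.3, 10.4 and 29.5 at high glucose. Its log2 change was -1.37 ± 0.39 (SE, adjusted p = 0.0367), and -0.94 ± 0.13 (SE, adjusted p = 7.6e-06) without replicate 3. Among fits under other settings or without a culture, the HCC1500 call held in 12 and was lost in 7. It was lost when any low glucose culture or high glucose replicate 4 was left out with replicate 3 kept, at -1.43 to -1.31. The remaining lost fits kept all cultures and used other settings.

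Among their partners, BARD1, the obligate partner of BRCA1, changed by -0.35, -1.18 and -0.80 on the log2 scale in the 3 lines, all called. BRIP1, a BRCA1-bound helicase, was among the largest falls in ZR-75-30, where cultures went from 145, 177, 159 and 174 to 58.8, 66.8, 67.1 and 79.5. The ranges lay far apart, with a log2 change of -1.26 ± 0.10 (SE, adjusted p = 7.41e-09). HCC1500 went from 159, 147, 139 and 161 to 82.6, 78.1, 53.5 and 69.7, a log2 change of -1.10 ± 0.15 (SE, adjusted p = 0.0013). MDA-MB-175 had 156, 192, 162 and 205 and 149, 149, 152 and 136, narrowly separate, with a log2 change of -0.28 ± 0.087 (SE, adjusted p = 0.028). Among fits under other settings or without a culture, that call held in 12 and was lost in 6. The lost ones included those without low glucose replicate 2 or 4 or high glucose replicate 2 or 4, at -0.28 to -0.21. PALB2, which bridges BRCA1 and BRCA2, passed only in ZR-75-30 with all cultures fitted (-0.27), and in HCC1500 without replicate 3 (-0.17). TOPBP1, an activator of ATR, was called in ZR-75-30 (-0.24) and HCC1500 (-0.67), and was at -0.11 with no call in MDA-MB-175.

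Genes that act on broken ends held both the largest falls and the clearest rise. EXO1, a nuclease of end resection, went in ZR-75-30 from 338, 326, 341 and 323 to 101, 109, 115 and 103 normalized reads. Its cultures were tight in both groups, and the log2 change was -1.63 ± 0.063 (SE, adjusted p = 6.23e-13). HCC1500 cultures went from 158, 169, 155 and 161 to 45.4, 55.7, 52 and 56.3, a log2 change of -1.60 ± 0.11 (SE, adjusted p = 5.2e-05). Here replicate 3 lay among the other high glucose cultures, and the value without it was -1.60. In MDA-MB-175 the cultures had 111, 111, 118 and 102 and 69.5, 90.3, 68.7 and 83.6, with no overlap and a log2 change of -0.50 ± 0.10 (SE, adjusted p = 0.00142). BLM, the helicase lost in Bloom syndrome, fell alike in ZR-75-30, from 136, 139.9, 154 and 156 to 52.6, 44.6, 48.9 and 48.7, with a log2 change of -1.57 ± 0.094 (SE, adjusted p = 2.09e-10). In HCC1500 BLM went from 95.4, 114, 99.7 and 94.3 to 37.8, 34.8, 26.7 and 35.5, a log2 change of -1.56 ± 0.14 (SE, adjusted p = 0.000182). The MDA-MB-175 values were 138, 134, 118 and 137 and 103, 112, 105 and 95.2, again separate, with a log2 change of -0.34 ± 0.082 (SE, adjusted p = 0.00588).

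RBBP8 (CtIP), which starts end resection with MRE11, was higher in HCC1500 and lower in the other lines. HCC1500 cultures had 802, 790.3, 768 and 767 normalized reads at low glucose and 1219, 1196, 1189 and 1203 at high glucose. Every high glucose culture, replicate 3 included, lay above every low glucose culture, and the log2 change was 0.62 ± 0.064 (SE, adjusted p = 0.000382). It was 0.63 ± 0.031 (SE, adjusted p = 7.15e-12) without replicate 3. In ZR-75-30 the cultures had 109.7, 106, 103 and 131 and 68.7, 55.4, 65.4 and 47.3, a log2 change of -0.92 ± 0.12 (SE, adjusted p = 4.93e-06). In MDA-MB-175 they had 101, 93.8, 99.1 and 106 and 74.9, 90.9, 79.6 and 76.2, a log2 change of -0.31 ± 0.089 (SE, adjusted p = 0.0165). In these 2 lines the high glucose cultures were all the lower ones. RBBP8 lies on chromosome 18, 20378224 to 20606451, in GENCODE lifted to GRCh37, and its exons shared no base with another listed gene.

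**Figure D3:**
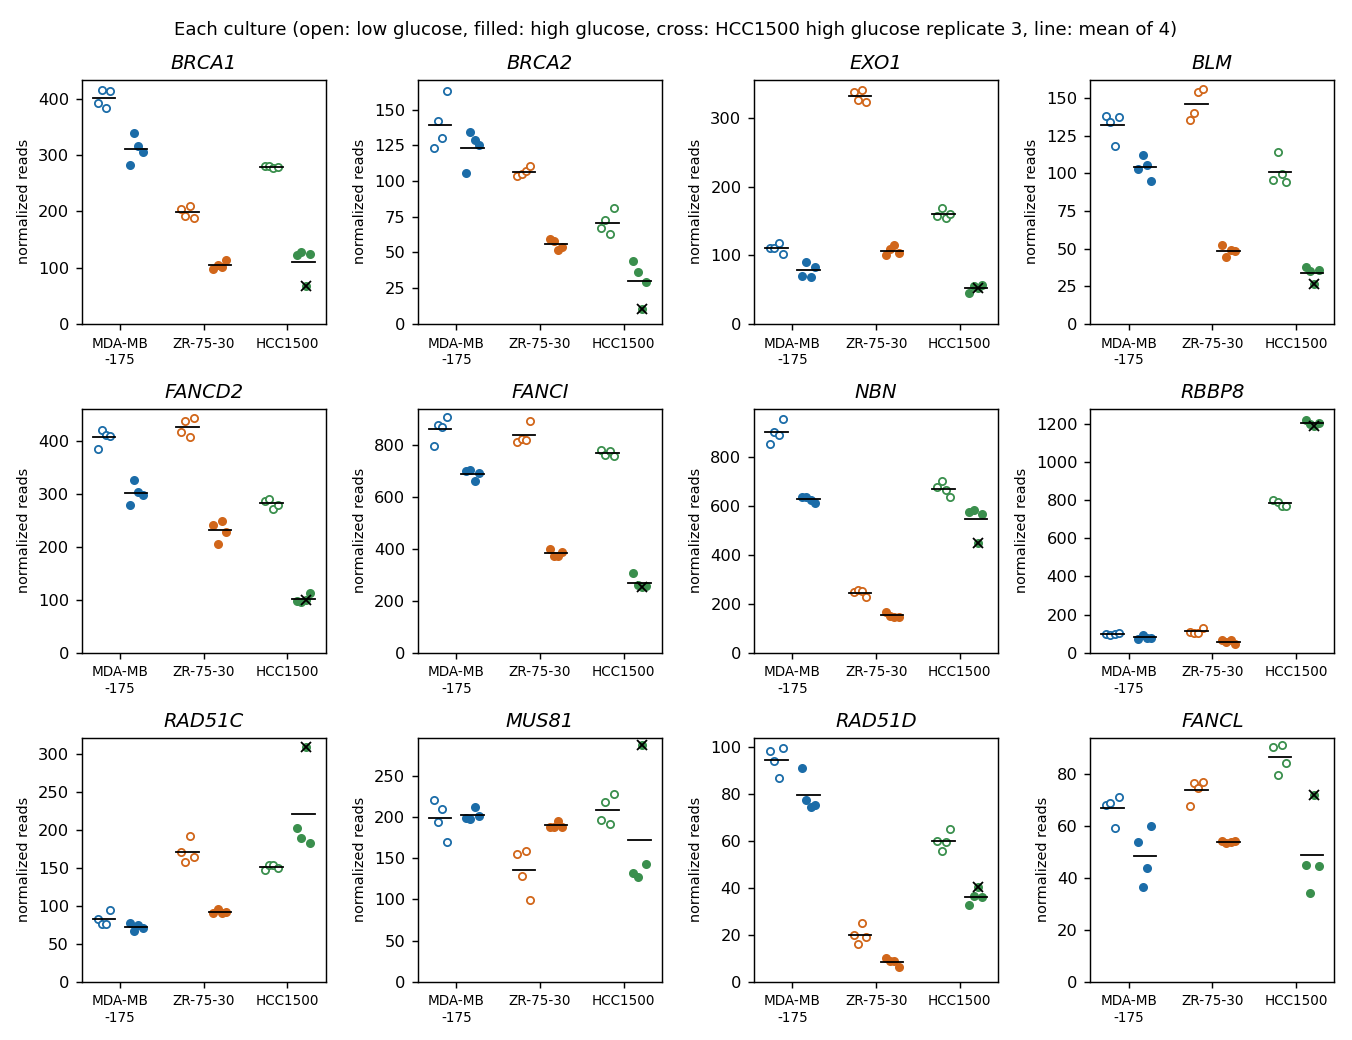
Normalized reads of 12 of the genes (y axes, starting at 0) in each culture, with low glucose open, high glucose filled, and the mean of 4 as a line. A cross marks HCC1500 high glucose replicate 3, which lay low for BRCA1 and BRCA2 and high for RAD51C and MUS81, while RBBP8 rose in HCC1500 and fell in the other lines.

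All 3 members of the MRE11 complex, which tethers and senses broken ends, were lower in HCC1500 without replicate 3, beside 37.7% of all genes. Fewer members of the complex were called lower in each line with all cultures, beside 13.7%, 22.7% and 13% of all genes. NBN, its signaling subunit, had the largest called change of the 35 genes in MDA-MB-175, from 856, 902, 891 and 959 to 639, 638, 625 and 614. The groups were well apart, with a log2 change of -0.52 ± 0.044 (SE, adjusted p = 3.23e-07). In ZR-75-30 NBN went from 250.4, 255, 252 and 227 to 169, 151, 148 and 146, a log2 change of -0.68 ± 0.067 (SE, adjusted p = 1.31e-07). HCC1500 had 677, 704, 666 and 638 and 578, 585, 451 and 569, separate but not called with all cultures, at -0.30 ± 0.10 (SE, adjusted p = 0.0638). The call appeared without replicate 3, at -0.22 ± 0.038 (SE, adjusted p = 8.1e-05). RAD50, the coiled-coil subunit, was called in HCC1500 alone of the 3 lines, at -0.47, and was at -0.0041 in MDA-MB-175 and -0.085 in ZR-75-30. MRE11A, the nuclease, was called in ZR-75-30 (-0.45) and, without replicate 3, in HCC1500 (-0.30), and was at -0.22 with no call in MDA-MB-175.

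The genes of strand pairing were lower in ZR-75-30, all 7 of them, beside 22.7% of all genes. In MDA-MB-175 4 were lower, beside 13.7%, and in HCC1500 5, beside 13%. Without replicate 3, HCC1500 had 6 lower and 1 higher, beside 37.7% and 20.9%. RAD51AP1, which stimulates strand pairing, had one of the largest falls in HCC1500, from 173, 183, 203 and 177 to 60.8, 65.2, 55.7 and 65.5. The log2 change was -1.56 ± 0.10 (SE, adjusted p = 5.2e-05), and -1.51 without replicate 3. ZR-75-30 went from 239, 233, 205 and 261 to 101, 106, 97.7 and 121, a log2 change of -1.13 ± 0.085 (SE, adjusted p = 3.59e-09). MDA-MB-175 had 276, 296, 317 and 321 and 257, 248, 229.9 and 262, where the groups came close without touching and the log2 change was -0.28 ± 0.064 (SE, adjusted p = 0.00393). RAD54L, a motor protein of strand pairing, changed by -0.35, -0.99 and -1.30 in the 3 lines. Its relative RAD54B changed by -0.44, -0.79 and -1.04, and all 6 of these changes passed. RAD54B shares 66% of its annotated exon bases with FSBP on the same strand, so its reads may not all be its own.

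RAD51C, a member of strand exchange complexes, went in opposite directions in ZR-75-30 and HCC1500. ZR-75-30 cultures fell from 171, 157, 191 and 164 to 90.6, 95.2, 90.9 and 91.8, a log2 change of -0.88 ± 0.079 (SE, adjusted p = 3.77e-08). HCC1500 cultures had 147, 154, 153 and 149.9 at low glucose and 202, 189.5, 309 and 182 at high glucose. The high glucose cultures were all above, with replicate 3 far the highest, and the log2 change of 0.51 ± 0.16 (SE, adjusted p = 0.059) missed the threshold. Without replicate 3 it was 0.34 ± 0.059 (SE, adjusted p = 8.75e-05) and passed. MDA-MB-175 had 82.7, 76.4, 75.7 and 94.6 and 77.8, 66.5, 74.6 and 71, overlapping, with -0.18 ± 0.10 (SE, adjusted p = 0.212). The other members of these complexes did not rise in any line. RAD51D was weakly expressed in ZR-75-30, where it went from 19.9, 15.9, 25.1 and 19.1 to 9.89, 8.78, 8.92 and 6.17, a log2 change of -1.15 ± 0.23 (SE, adjusted p = 0.000418) that the added 1 before the log understates. HCC1500 had 60.0, 55.6, 59.4 and 65 and 32.4, 36.3, 40.1 and 36, with -0.72 ± 0.12 (SE, adjusted p = 0.00371). MDA-MB-175 had 97.9, 93.8, 86.5 and 99.2 and 90.7, 77.2, 74.2 and 75.2, an overlap with -0.25 ± 0.093 (SE, adjusted p = 0.0596), and the call passed without high glucose replicate 1, at -0.32. XRCC2 was lower in ZR-75-30 (-0.95) and HCC1500 (-1.46), and was at -0.063 with no call in MDA-MB-175. XRCC3 was lower in ZR-75-30 (-0.63) and MDA-MB-175 (-0.26), and in HCC1500 only without replicate 3 (-0.43, against -0.22 with it). The exons of XRCC3 overlap those of KLC1 on the other strand over 76.7% of their bases, and whether counting used strand is not given in the sources used here.

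Of the checkpoint kinases, CHEK1 was lower in each line and ATM in none. ATM and ATR, which sense breaks and stalled forks, were not called in any line with all cultures. ATM was at -0.035, 0.027 and -0.51 in the 3 lines, and at -0.029 in HCC1500 without replicate 3. ATR was at -0.056, 0.011 and -0.39, and without replicate 3 was lower in HCC1500 at -0.14 ± 0.041 (SE, adjusted p = 0.0062). CHEK1, the kinase that ATR activates, was lower in the 3 lines at -0.29, -1.19 and -0.80. CHEK2, the main target of ATM, was lower in ZR-75-30 (-0.52) and, without replicate 3, in HCC1500 (-0.72), and was at -0.18 with no call in MDA-MB-175. The annotation names 8 CHEK2 pseudogenes and 1 each for BRCA1, MRE11A, RBBP8, RAD51AP1 and FANCD2, and since none of these copies was among the listed genes, reads of the 6 genes may be incomplete or shared.

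Of the 8 genes of the Fanconi core complex and its anchor FANCM, the counts of lower genes in the 3 lines were 4, 7 and 4, beside 13.7%, 22.7% and 13% of all genes. In HCC1500 without replicate 3 the count was 6, beside 37.7%, and 0 were higher in each of these fits. FANCL, the ubiquitin ligase of the complex, was among the 3 largest changes in MDA-MB-175. Its cultures there had 68.2, 69, 59.2 and 71.2 and 53.7, 36.4, 43.7 and 59.9 normalized reads, which overlapped, and the log2 change was -0.48 ± 0.14 (SE, adjusted p = 0.0195). Among fits under other settings or without a culture, that call held in 15 and was lost in 3. The lost ones included those without high glucose replicate 2 (-0.35) or 3 (-0.44). ZR-75-30 went from 67.6, 76.8, 74.6 and 77.1 to 54.2, 53.3, 54 and 54.1, separate, with -0.45 ± 0.10 (SE, adjusted p = 0.00144). HCC1500 had 90.5, 79.7, 91.3 and 84.4 and 44.8, 34.3, 72 and 44.8, replicate 3 being the highest of the high glucose cultures, with -0.86 ± 0.21 (SE, adjusted p = 0.0201) and, without it, -1.06 ± 0.11 (SE, adjusted p = 2.04e-07). With replicate 3 kept, the HCC1500 call was lost without low glucose replicate 1, 3 or 4 or high glucose replicate 1 or 4, at -0.87 to -0.83.

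The remaining core genes differed in how far they moved. FANCG was lower in the 3 lines, at -0.33, -0.86 and -1.002. FANCF, an adaptor of the complex, was lower in ZR-75-30 (-0.35) and MDA-MB-175 (-0.23), and in HCC1500 only without replicate 3 (-0.35). FANCA was lower in ZR-75-30 (-0.95) and HCC1500 (-0.66), and FANCC likewise at -0.83 and -0.33, while in MDA-MB-175 they were at -0.20 and -0.16 with no call. FANCB, the most weakly expressed, was lower in ZR-75-30 (-0.93) and, without replicate 3, in HCC1500 (-0.50). FANCE was not called in any line, at -0.22, -0.26 and -0.22. FANCM, the translocase that brings the complex to DNA, was lower in ZR-75-30 (-0.92) and MDA-MB-175 (-0.24), and in HCC1500 was at -0.17 with and 0.0087 without replicate 3, neither called.

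FANCD2 and FANCI, the pair that the core complex marks with ubiquitin, fell in each line with little spread. FANCI went in MDA-MB-175 from 795, 877, 869 and 907 to 699, 702, 661 and 694, a log2 change of -0.32 ± 0.047 (SE, adjusted p = 9.32e-05). In ZR-75-30 the cultures went from 811, 825, 820.3 and 893 to 399, 373, 374 and 387, a log2 change of -1.13 ± 0.045 (SE, adjusted p = 9.12e-13). In HCC1500 they went from 782, 760.4, 778 and 757 to 307, 261, 252 and 257, a log2 change of -1.52 ± 0.085 (SE, adjusted p = 3.19e-05), with replicate 3 beside replicates 2 and 4. No high glucose culture reached a low glucose culture of its line. FANCD2 went from 385, 421, 411 and 409 to 280.0, 325, 305 and 297 in MDA-MB-175, which is a log2 change of -0.43 ± 0.056 (SE, adjusted p = 2.82e-05). ZR-75-30 went from 417, 437, 407 and 444 to 241, 206, 249 and 228, a log2 change of -0.88 ± 0.06 (SE, adjusted p = 1.16e-09). HCC1500 went from 287, 290.3, 272 and 279 to 97.3, 95, 99.5 and 114, a log2 change of -1.47 ± 0.09 (SE, adjusted p = 4.4e-05), and the groups were separate in each line.

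EME1 and MUS81 form a nuclease that cuts recombination intermediates, and the pair was called in opposite directions in ZR-75-30. EME1 was lower in ZR-75-30 (-0.69) and HCC1500 (-1.09, and -1.15 without replicate 3), and was at -0.07 with no call in MDA-MB-175. MUS81 was the only one of the 35 genes called higher in ZR-75-30, where low glucose cultures had 155, 129, 159 and 99.2 and high glucose cultures 189, 188, 196 and 188. The low glucose cultures were spread and all lay below the tight high glucose cultures, with a log2 change of 0.51 ± 0.11 (SE, adjusted p = 0.000875). HCC1500 had 197, 218, 191 and 229 at low and 132, 127, 287 and 143 at high glucose, a log2 change of -0.36 ± 0.25 (SE, adjusted p = 0.349). Replicate 3 alone stood above the low glucose cultures, and without it MUS81 was lower too, at -0.64 ± 0.07 (SE, adjusted p = 3.5e-07). MDA-MB-175 had 220.3, 194, 209.5 and 170.4 and 199, 198, 212 and 201, overlapping, at 0.035 ± 0.075 (SE, adjusted p = 0.785). MUS81 lies on chromosome 11, 65624597 to 65635124, in GENCODE lifted to GRCh37, and 14.1% of its exon bases overlap CFL1 or EFEMP2 on the other strand.

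The size of the glucose response was then compared between lines in a single model of all 24 cultures. The change differed between lines for 25 of the 35 genes (limma F test of the interaction), beside 29.3% of all genes tested. Without HCC1500 high glucose replicate 3 it differed for 29, beside 48.6%. FANCI, RBBP8 and FANCD2 had the smallest p-values, at adjusted p of 1.58e-09, 6.22e-08 and 1.21e-07. For FANCI, the change in HCC1500 minus that in MDA-MB-175 was -1.19 ± 0.082 (SE, adjusted p = 9.54e-10), and minus that in ZR-75-30 -0.39 ± 0.082 (SE, adjusted p = 0.00108). RBBP8 differed in the other direction, with HCC1500 minus ZR-75-30 at 1.54 ± 0.13 (SE, adjusted p = 2.12e-08) and HCC1500 minus MDA-MB-175 at 0.93 ± 0.13 (SE, adjusted p = 2.88e-05). RAD51C followed at 1.39 ± 0.17 (SE, adjusted p = 2.08e-06) for HCC1500 minus ZR-75-30. For MUS81 that difference was -0.87 ± 0.26 (SE, adjusted p = 0.0146), and -1.15 ± 0.15 (SE, adjusted p = 1.67e-06) without replicate 3. EXO1 and BLM changed more in ZR-75-30 and HCC1500 than in MDA-MB-175, and between ZR-75-30 and HCC1500 the differences were 0.026 ± 0.12 (SE, adjusted p = 0.924) and 0.0079 ± 0.14 (SE, adjusted p = 0.989).

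The 10 genes with no call in the interaction test were PALB2, MRE11A, XRCC3, ATM, ATR, CHEK2, FANCB, FANCE, FANCF and FANCL, 4 of which (XRCC3, CHEK2, FANCB and FANCL) passed without replicate 3. Estimates were more negative in ZR-75-30 than in MDA-MB-175 for 31 genes. They were more negative in HCC1500, with replicate 3 included, than in MDA-MB-175 for 29. The shares of all genes are not given here, so these counts are not read as particular to the 35. Across the 35 genes Pearson's r between log2 changes was 0.59 for MDA-MB-175 and ZR-75-30, 0.49 for ZR-75-30 and HCC1500 and 0.31 for MDA-MB-175 and HCC1500, a description across genes measured in the same libraries.

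Levels at low glucose also differed between lines for many of the genes. MDA-MB-175 and ZR-75-30 differed for 24 of the 35 (background 63.8%), MDA-MB-175 and HCC1500 for 26 (72.6%) and ZR-75-30 and HCC1500 for 22 (73%), shares near those of all genes. RBBP8 differed most. Per kb of transcript it stood at 239 ± 5.24 normalized reads (SD, n = 4) in HCC1500, 34.2 ± 3.85 in ZR-75-30 and 30.5 ± 1.52 in MDA-MB-175. On the log2 scale ZR-75-30 minus HCC1500 was -2.80 ± 0.094 (SE, adjusted p = 1.33e-17), MDA-MB-175 minus HCC1500 was -2.96 ± 0.094 (SE, adjusted p = 5.52e-18), and MDA-MB-175 and ZR-75-30 did not pass at -0.16 ± 0.094 (SE, adjusted p = 0.147). NBN was low in ZR-75-30, at 53.2 ± 2.82 per kb against 195 ± 9.24 in MDA-MB-175 and 145 ± 5.95 in HCC1500. Its level in MDA-MB-175 minus ZR-75-30 was 1.87 ± 0.071 (SE, adjusted p = 2.21e-16). RAD51D was also lowest in ZR-75-30, with MDA-MB-175 minus ZR-75-30 at 2.20 ± 0.13 (SE, adjusted p = 1.24e-12) and ZR-75-30 minus HCC1500 at -1.55 ± 0.13 (SE, adjusted p = 4.02e-10).

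**Figure D4:**
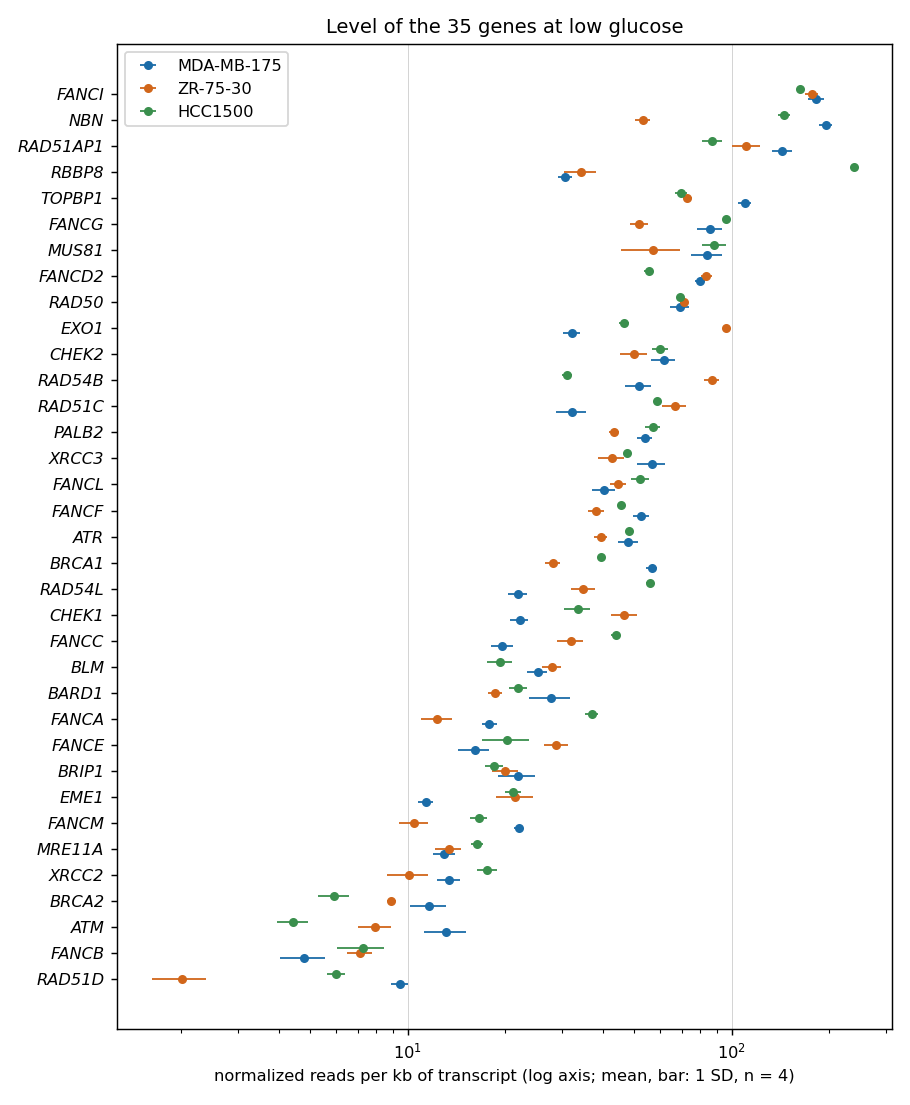
Level of each gene at low glucose in normalized reads per kb of canonical transcript (x axis, log scale; mean of 4 cultures, bar of 1 SD), genes ordered by their mean over the lines. FANCI was high in each line, and RBBP8 in HCC1500 and NBN and RAD51D in ZR-75-30 stand away from the other lines.

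Per kb at low glucose, FANCI was among the 3 highest of the 35 genes in each line, at 182 ± 10.1, 177 ± 7.97 and 163 ± 2.62 in the 3 lines. In MDA-MB-175, NBN was highest at 195 ± 9.24 and overlapped FANCI within their SDs, and RAD51AP1 followed at 143 ± 9.98. In HCC1500, RBBP8 led, above FANCI and NBN. FANCB, RAD51D and BRCA2 were among the 4 lowest in each line, with RAD51D in ZR-75-30 at 2.01 ± 0.38. The RAD51D transcript used here is 9966 bases long, and its level per kb depends on that choice. BRCA1 stood at 56.6 ± 2.29, 28 ± 1.45 and 39.4 ± 0.255 and BRCA2 at 11.7 ± 1.48, 8.91 ± 0.264 and 5.94 ± 0.651 per kb.

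A further 57 genes of the same pathways, outside the 35, were more often called lower than higher. In MDA-MB-175, 21 were lower and 1 higher, beside 13.7% and 11.9% of all genes. In ZR-75-30 the counts were 37 and 2, beside 22.7% and 23.4%. In HCC1500 they were 15 and 1, beside 13% and 7.46%, and without replicate 3 41 and 8, beside 37.7% and 20.9%. In MDA-MB-175 the largest falls were those of H2AFX, the histone marked at breaks (-0.50), and MCM8, a helicase (-0.49), and PSMC3IP rose (0.46). ZR-75-30 was led by CLSPN, an adaptor of CHEK1 (-1.48), and H2AFX (-1.34), with FAM175A, a scaffold of the BRCA1-A complex (0.84), and ERCC1 (0.14) higher. HCC1500 was led by POLQ, the polymerase of an alternative end joining route (-1.56), and CLSPN (-1.47), with the helicase HELQ higher (0.57). Without replicate 3 the order changed, with MND1 first (-1.59), CLSPN at -1.22 and POLQ at -1.20.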

How the data were processed

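RNA was sequenced on an Illumina HiSeq from 24 cultures, grouped by their titles and treatment labels. The authors deposited a normalized signal per gene, and tests on the values found them to be whole reads scaled by a factor for each culture. Whole reads were recovered for 100% of values within 0.1 read. GEO's processing notes name edgeR and hg38. For tumor libraries the study's methods describe Trimmomatic, TopHat with hg19, DESeq2 and edgeR. The counting tool and strand setting for these cultures are not given in the sources used here.

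Each line's 8 cultures were fitted with limma 3.58.1 (R 4.3.3) on log2(value + 1), with a trended prior, for genes that reached 0.5 in 4 or more cultures. All adjusted p-values are limma's, Benjamini-Hochberg over all genes tested, called under 0.05. A model of 6 group means over 24 cultures gave interactions and low glucose differences. Fold changes on this scale understate changes of low genes. Errors are SE for log2 changes and SD for levels. edgeR 4.0.16 and DESeq2 1.42.0 on recovered reads, other scalings, filters and pseudocounts, and leaving out each culture were alternatives, and the fits without HCC1500 high glucose replicate 3 under another scaling, tool or block were chosen after seeing the data. The fits were tested on simulated data with 1 fixed spread and no outlying culture. In the 3 lines they recovered 46.3%, 50.7% and 41.8% of 1.25-fold changes and 92.4%, 90.9% and 90.9% of 2-fold changes. The interaction test recovered 54.1% of differing genes, and 7.20% of its calls were false.

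The genes and lists were chosen with earlier results of these data known. A gene of the wider pathway list is not reported here. Values by culture are given for BRCA1, BRCA2, the 3 largest called changes per line, genes called higher or in opposite directions, the 3 smallest interaction p-values and the 3 largest differences at low glucose. Of the E2F-type matches, sites were printed for each gene outside chromosome 8 whose window began near the canonical start. Upstream sequence was limited to such genes among the 6 largest falls in all lines, a limit set after the windows were seen. Transcript lengths and exon overlaps come from GENCODE 44 lifted to GRCh37, and promoters from RefSeq.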

Additional observations from a re-analysis of the deposited data

Results flagged for a closer look

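In 18 of 210 sets of 4 cultures (35 genes in 6 groups), the highest or lowest culture was separated from its neighbor by a gap past Dixon's 95% critical value, where chance would flag about 1 in 20. HCC1500 high glucose replicate 3 gave 11 of them. It was the lowest culture, in normalized reads, for BRCA1 (67.6), BARD1 (52), TOPBP1 (189), NBN (451), ATR (180.4) and FANCM (72.8), and the highest for RAD51C (309), XRCC3 (163), FANCF (139), FANCG (171) and MUS81 (287). The others were TOPBP1 in MDA-MB-175 low glucose replicate 4 (678), RAD50 in MDA-MB-175 low glucose replicate 4 (628), FANCB in HCC1500 low glucose replicate 1 (27.4), FANCF in MDA-MB-175 high glucose replicate 2 (163), FANCI in ZR-75-30 low glucose replicate 4 (893), FANCI in HCC1500 high glucose replicate 1 (307) and MUS81 in ZR-75-30 high glucose replicate 3 (196).

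The change from low to high glucose differed between the lines, by the interaction test, for 25 genes. The log2 distance between the most positive and the most negative change over the 3 lines was at least 1 for RBBP8 (1.54), XRCC2 (1.39), RAD51C (1.39), RAD51AP1 (1.28), BLM (1.23), BRCA2 (1.20), FANCI (1.19), EXO1 (1.12), FANCD2 (1.04), EME1 (1.02) and BRCA1 (1.01). It was under 1 for BRIP1 (0.98), RAD54L (0.95), RAD51D (0.90), CHEK1 (0.90), MUS81 (0.87), BARD1 (0.83), FANCA (0.76), FANCM (0.75), FANCG (0.67), FANCC (0.66), RAD54B (0.60), TOPBP1 (0.57), RAD50 (0.47) and NBN (0.37). RBBP8, RAD51C and MUS81 had opposite signs with calls in ZR-75-30 and HCC1500, for RAD51C and MUS81 when HCC1500 high glucose replicate 3 was left out.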

How the results depend on the processing

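The count of genes lower in MDA-MB-175 was 18 and fell to 10 with all 24 cultures fitted together, which pools the spread of all lines. Leaving out 1 culture at a time gave 13 to 19 there. The median change in ZR-75-30, -0.88, moved to -0.83 with a pseudocount of 5 and to -0.82 with CPM rescaling, and to between -0.89 and -0.83 without a culture. In HCC1500 the count of higher genes went from 1 to 2 (RAD51C added) with median-of-ratios, CPM rescaling, edgeR, DESeq2, removal of the length and GC trend, or all 24 cultures, and was 1 to 2 without a culture. The HCC1500 median of -0.67 moved to -0.62 with median-of-ratios, -0.61 under DESeq2 and -0.55 after removal of the length and GC trend, and ran from -0.73 to -0.66 without a culture, and lower genes there ran from 17 to 30. Without high glucose replicate 3, another scaling, tool or block gave 25 to 30 lower and 2 higher genes, with medians of -0.60 (median-of-ratios), -0.58 (edgeR) and -0.58 (DESeq2). The causes of these moves were not tested. The count lower in all 3 lines ran from 9 to 16, and that of differing changes from 21 to 29. Same-numbered cultures did not deviate together in each line (correlations -0.037 to 0.11), so the numbers were not taken as pairs. With a replicate block, lower genes numbered 18, 30 and 19 by line, higher genes 0, 1 and 1, 13 were lower in all 3 lines and 24 differed between lines. For 42 changes of the genes described by culture, 770 fits under other settings or without a culture were made, and 733 gave the same call. A call was lost in 22 of these fits and gained in 15, and 0 reversed a called change. Depth limits FANCB and RAD51D most, the latter at 6.17 to 25.1 normalized reads in ZR-75-30.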
